A study of Mus musculus with 12 samples.

Results

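The nuclear genes of the respiratory chain were described in CD11c+ immune cells sorted from mouse melanomas. The set holds protein-coding genes of GENCODE vM21 whose symbol begins as those of complexes I to V do, with 1 symbol left out by rule (Ndufa, Ndufb, Ndufc, Ndufs or Ndufv with a number, Sdha to Sdhd, Uqcr, Cox4 to Cox8, and Atp5). 84 of the 55401 rows of the expression table matched, against 21884 rows of nuclear protein-coding genes in all. The 84 rows carry 83 symbols, because Atp5o is listed under 2 identifiers. Subunit genes with other symbols, such as Cyc1, Ndufab1 and Usmg5, are not in the set, so counts and shares per complex cover only the genes of the rule. 78 rows reached at least 10 normalized counts in at least 3 libraries and were tested: 35 of 35 of complex I, 4 of 4 of complex II, 8 of 8 of complex III, 14 of 19 of complex IV and 17 of 18 of complex V. The 6 rows under that minimum were the second entry of Atp5o, Cox4i2, Cox7b2, Cox8b, Cox8c and Ndufa4l2.

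The respiratory chain lies in the inner membrane of mitochondria. Complex I takes electrons from NADH and complex II from succinate, both pass them to ubiquinone, complex III hands them to cytochrome c, and complex IV passes them to oxygen. Complexes I, III and IV pump protons, and complex V, the ATP synthase, lets the protons flow back and makes ATP. Complex II is encoded in the nucleus alone, whereas the other 4 complexes join nuclear subunits to subunits encoded in mitochondrial DNA. In dendritic cells and macrophages the balance between respiration and glycolysis is known to shift with activation.

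The cells came from B16-OVA tumours, a mouse melanoma line that carries chicken ovalbumin, grown for 10 days in wild-type (WT) mice. Tumours were left untreated, were given 20 Gy of radiation on day 10, were given a fusion protein in a dose of 20 mcg (day 10) followed by 10 mcg (day 14), or received both, with 3 libraries in each of the 4 groups. Tumours collected on day 17 were broken up with collagenase IV and DNase, live CD45+ CD11c+ cells were sorted, and total RNA was sequenced. The sources used here do not name the parts of the fusion protein, how many mice a library pools or their age. Whether a group's libraries stem from different animals is not labelled, so a p-value here speaks only of library-to-library spread, possibly technical. In bulk RNA of this kind, fewer cells of a type and less RNA per cell cannot be told apart.

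The libraries held 14462032 to 23985496 counted reads. Ptprc, which encodes CD45, lay at 30925 to 53839 normalized counts and Itgax, which encodes CD11c, at 2226 to 9497. All 9 dendritic cell markers of a fixed list were read in every library, with a sum of 22360 to 38934. The 20 Gy library numbered 3 stood apart: its summed melanoma markers were at 14555 against at most 53.7 in the other 20 Gy libraries and at most 4030 in the other groups, 18.57% of its reads were mitochondrial against 6.95% to 14.34% elsewhere, and 65.2% came from nuclear protein-coding genes against 71.3% to 78% elsewhere. Melanoma markers were highest in the library numbered 3 of the other groups too, at 1616 in untreated, 4030 in fusion protein and 878.7 in combined samples. Libraries numbered 1 and 2 had at most 217.1. The 20 Gy libraries numbered 1 and 2 and the combined library numbered 1 differed in another way. They had a read in 43326, 35934 and 36972 genes, against 22100 to 31998 in the other libraries. Results that rest on the 20 Gy library numbered 3 are given with and without it, and fits without the libraries rich in genes read are given in the last section.

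The sequence before the start of these genes was examined first, because nuclear respiratory factor sites are the textbook feature that respiratory chain promoters share and the rule used symbols alone. RefSeq entries on GRCm38.p6 were found for 68 of the 83 symbols, giving 73 windows of 250 bases before to 50 after a start. Each motif was searched on both strands and compared with 32851 windows of all genes. The NRF1 motif GCGCANGCG was present in 28.8% of the members' windows against 6.25% of all windows. The ETS motif CCGGAAG, bound by the GABP factors, was present in 21.9% against 8.86%, the YY1 motif AAGATGGCG in 9.59% against 1.4%, and the oestrogen-related receptor motif AAGGTCA in 11% against 4.72%. The GC box GGGCGG did not stand out (39.7% against 35.7%), nor did TATAAA (11% against 13.6%).

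The members' windows were richer in CG pairs, with a median of 19 in a window against 7 over all windows. Among windows with at least 15 CG pairs, 56 of members and 11378 of all genes, NRF1 was present in 35.7% against 16.1%, ETS in 25% against 18.9%, YY1 in 8.93% against 3.32% and the oestrogen-related receptor motif in 10.7% against 2.09%. There the GC box was less frequent in the members (46.4% against 76.8%). A match is a description of letters and not a measured binding site.

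The 4 stretches below show the member with the largest rise of the study (Atp5k) and 3 upstream regions with motif matches, from the ATP synthase (Atp5l, which encodes the partner subunit of Atp5k), complex IV (Cox6a1) and complex I (Ndufs5). They are written 5′ to 3′ on the strand of the gene, from RefSeq on GRCm38.p6, and each ends before the annotated exon. Capitals mark matches to NRF1, ETS, the oestrogen-related receptor motif or TATAAA on either strand.
Atp5k, chr5:108434449-108434649, minus strand: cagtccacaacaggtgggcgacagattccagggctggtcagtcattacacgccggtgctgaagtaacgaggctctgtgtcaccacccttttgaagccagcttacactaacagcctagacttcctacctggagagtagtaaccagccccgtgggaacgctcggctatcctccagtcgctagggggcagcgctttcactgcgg
Atp5l, chr9:44920752-44920992, minus strand: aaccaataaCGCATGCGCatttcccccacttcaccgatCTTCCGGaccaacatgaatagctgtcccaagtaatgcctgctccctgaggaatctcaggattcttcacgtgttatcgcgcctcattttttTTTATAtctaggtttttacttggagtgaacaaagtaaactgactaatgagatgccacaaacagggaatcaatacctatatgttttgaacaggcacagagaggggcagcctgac
Cox6a1, chr5:115348982-115349129, minus strand: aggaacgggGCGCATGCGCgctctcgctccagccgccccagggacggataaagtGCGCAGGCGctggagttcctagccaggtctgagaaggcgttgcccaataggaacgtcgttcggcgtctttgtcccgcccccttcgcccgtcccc
Ndufs5, chr4:123718203-123718436, minus strand: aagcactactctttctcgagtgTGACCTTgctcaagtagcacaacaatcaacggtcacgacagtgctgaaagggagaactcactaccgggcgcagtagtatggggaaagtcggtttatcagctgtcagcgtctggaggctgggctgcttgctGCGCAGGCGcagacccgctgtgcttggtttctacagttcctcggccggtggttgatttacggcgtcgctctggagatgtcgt
Atp5l carries NRF1, ETS and TATAAA matches in 241 bases. Cox6a1 has 3 NRF1 matches in 148 bases, counted over both strands, and Ndufs5 has NRF1 and oestrogen-related receptor matches in 234 bases. The Atp5k stretch has no capitals, because the 2 NRF1 matches, the ETS match and the oestrogen-related receptor match of its window lie within the annotated exon, which is not printed.

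Transcript levels were compared between genes as reads per base of the principal transcript, scaled to the same total over nuclear protein-coding genes in each library (the TPM scale). The median member stood at 123.5 on this per-length scale, against 20.3 for all nuclear protein-coding genes tested. The median level was 95.5 in complex I, 116.3 in complex II, 136.6 in complex III, 190.7 in complex IV and 197.3 in complex V. ATP synthase genes made up 34.1% of the members' summed level, complex I 27.4%, complex IV 22.8%, complex III 12.8% and complex II 3.0%.

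**Figure D1:**
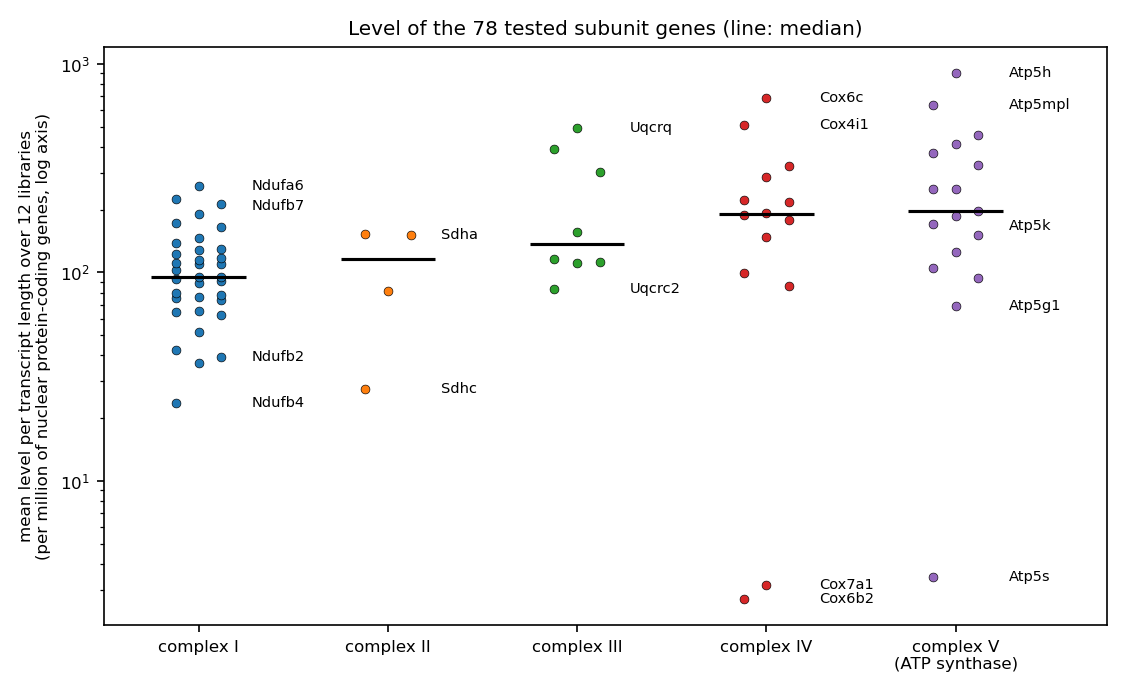
Per-length level of each tested member by complex, on a log axis, as the mean over the 12 libraries. Complex I spans 23.7 to 261, whereas complexes IV and V each reach from under 4 to over 600.

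In complex I the highest per-length levels were those of the accessory subunits Ndufa6 (261), Ndufb7 (225) and Ndufb10 (212), and the lowest those of Ndufb4 (23.7), Ndufb3 (36.7) and Ndufb2 (39.2). In complex II the levels of the catalytic pair were alike, at 151 for the flavoprotein Sdha and 153 for the iron-sulphur protein Sdhb. Of the membrane anchors, Sdhd was at 81.7 and Sdhc at 27.7. Complex III was led by the small subunits Uqcrq (495), Uqcrb (390) and the hinge protein Uqcrh (303), while the core protein Uqcrc2 (83.5), the Rieske iron-sulphur protein Uqcrfs1 (111) and Uqcr10 (112) were lowest.

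Complex IV was led by Cox6c (684), Cox4i1 (512) and Cox8a (325), and its lowest tested genes were Cox6b2 (2.72), Cox7a1 (3.15) and Cox7a2 (85.7). Complex V was led by Atp5h (902), the subunit d of the peripheral stalk, the small proteolipid Atp5mpl (632) and the catalytic-head subunit Atp5a1 (456). Its lowest genes were Atp5s (3.45), which encodes coupling factor B, Atp5g1 (68.8) and Atp5o (94.3). The length chosen matters for some genes: with the longest principal transcript the level of Ndufb2 was 4.40, of Atp5g1 10.9, of Uqcrq 142 in place of 495, and of Ndufc1 52.1 in place of 191. Reads of some members cannot be parted from an overlapping gene where strand was not used in counting, which the sources do not state. Such pairs included Ndufs1 with Eef1b2, Cox6c with Vps13b, Ndufb2 with Braf, Ndufs6 with Mrpl36, Atp5j with Gabpa and Ndufb11 with Rbm10. Cox4i1 with Emc8 and Ndufs3 with Kbtbd4 were others. Atp5o overlaps Donson and Cryzl1 (mean counts 552.4 and 317.0) and its own second entry on the same strand, which strand use would not part. The effect of this on the low level of Atp5o was not tested.

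Levels of most members varied little over the 12 libraries. The SD of the log2 normalized count had a median of 0.30 over the 78 members, against 0.59 over all tested genes, which include many genes of lower count. Among the steadiest were the core protein Uqcrc2 of complex III (0.11) and Ndufb5, Ndufs3 and Ndufs1 of complex I (0.12 to 0.15). The most variable were Cox6b2 (1.33), Cox7a1 (1.15) and Atp5s (0.88), which are the 3 members of lowest per-length level among those tested, followed by Ndufb6 (0.53) and Atp5k (0.50).

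Several subunits exist as a general form and a form known from other tissues, and the general forms made up nearly all of the level. The shares below are of the summed per-length level of the 2 forms, as means over 3 libraries. Cox4i2, the lung and hypoxia form of Cox4i1, took 0.05% of its pair in untreated, 0.06% in fusion protein, 0.41% in 20 Gy and 0.08% in combined samples. Its normalized counts were 1.5, 1.25 and 0 in untreated samples, 1.06, 1.01 and 2.20 with fusion protein, 10.6, 11.8 and 2.62 with 20 Gy, and 0.90, 2.36 and 1.73 with both. In normalized counts the 3 samples given 20 Gy alone were the highest. 20 Gy libraries 1 and 2, which were rich in genes read, exceeded the minimum count of the main test (10.6 and 11.8). Cox4i2 was left out of that test because too few libraries reached the minimum count. The rank of 20 Gy library 3 (2.62) rested on scaling alone, as it had 2 reads against 3 in combined library 2 (2.36). A count of 0 in a library allows up to 3 reads by counting error alone.

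Cox6b2, the testis form of Cox6b1, took 1.95%, 0.29%, 2.98% and 0.61% of its pair in the same order of groups. Its counts were 12.7, 4.99 and 9.31 in untreated samples, 4.23, 0 and 2.20 with fusion protein, 19.4, 21.4 and 14.4 with 20 Gy, and 3.6, 6.29 and 1.73 with both. The combined samples lay wholly below the 20 Gy samples, as the fusion protein samples did below the untreated ones. Cox6b2 met the minimum only through its 3 samples given 20 Gy and 1 untreated sample, and it was not called in any comparison at the adjusted p threshold of 0.05. Cox7a1, the muscle form, took 4.39%, 2.97%, 3.93% and 2.85% of its pair.

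The remaining tissue forms were barely read. Cox7b2 had 0, 3, 7 and 6 reads summed over untreated, fusion protein, 20 Gy and combined samples, the muscle form Cox8b 0, 0, 5 and 0, the testis form Cox8c 0, 0, 1 and 0, and Ndufa4l2, a target of the hypoxia factor HIF, 0, 1, 13 and 1. A fit without a filter on low counts called none of these forms nor Cox4i2 in any of the 6 comparisons, with a smallest adjusted p of 0.392. The second Atp5o entry was at 0 in all 12 libraries. Beside this, 230 to 1385 of 1754 olfactory and vomeronasal receptor genes, which serve smell, had a read in 20 Gy samples and 239 to 1012 in combined samples, against 88 to 374 in untreated and 84 to 447 in fusion protein samples. The highest were 20 Gy libraries 1 and 2 (1385 and 1035) and combined library 1 (1012), whereas 20 Gy library 3 had 230. The part of such receptor reads in the reads of the tissue forms was not tested.

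The c-ring of the ATP synthase, through which protons pass, is built from 1 protein encoded by 3 genes. Atp5g3 took 37.4% to 53.2% of the summed per-length level over the 12 libraries, Atp5g2 26.5% to 38.7% and Atp5g1 17.2% to 26%. With the longest principal transcripts the shares were 57.9% to 73.5%, 22.3% to 36.6% and 3.5% to 5.9%. On the first scale Atp5g3 led in every library but fusion protein library 2 (Atp5g2 38.7%, Atp5g3 37.4%), and on the second it led in all 12.

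Each treatment was next compared with the untreated samples, which all 3 of these comparisons share. With fusion protein alone, no member passed the test in either direction, against 0.586% of all tested genes called higher and 0.159% called lower. By limma 7 of 78 members had an unadjusted p under 0.05, against 1536 of all 18274 genes. edgeR and DESeq2 called 0 members as well. 63 of 78 fitted values lay above 0, against 49.5% of all genes, and the median log2 fold change was 0.23 against −0.005 over all genes. By complex the medians were 0.26 in I, 0.06 in II, 0.18 in III, 0.24 in IV and 0.15 in V.

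Samples given fusion protein lay wholly above the untreated ones for 14 members (5.94% of all genes) and wholly below for 1 member (4.7%). The smallest p-values were those of complex I accessory subunits: Ndufa5 (0.59, adjusted p = 0.41), Ndufb7 (0.61, adjusted p = 0.415), Ndufb9 (0.57, adjusted p = 0.443) and Ndufs4 (0.55, adjusted p = 0.452). For 57 of 78 members the 95% interval of the fold lay within 2-fold in either direction, against 34.4% of all genes. Without the untreated library numbered 1, 51 of 78 fitted values lay above 0 and the median was 0.12. That library was the lowest of its group for 53 of 78 members (67.9%), against 34.6% of all genes.

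With 20 Gy alone, no gene of the table passed the test in either direction, so 0% of all genes were called higher and 0% lower, members included. By limma 6 of 78 members had an unadjusted p under 0.05, against 1231 of all 18274 genes. edgeR called 0 genes, and DESeq2 41 higher and 4 lower, 0 of them members. 62 of 78 fitted values lay above 0 (53.3% of all genes), with a median log2 fold change of 0.15 against 0.04. With every library kept, all 14 tested genes of complex IV were at or above 0, with a median of 0.28, and complex I had a median of 0.11. The groups did not overlap for 13 members that were higher (6.73% of all genes) and for 0 that were lower (4.79%).

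The smallest p-values with 20 Gy were those of Ndufb9 (0.65, adjusted p = 0.707), Ndufc1 (0.67, adjusted p = 0.721), Ndufv2 (0.44, adjusted p = 0.721) and Ndufb3 (0.71, adjusted p = 0.722). Normalized counts of Ndufc1, an accessory subunit of the membrane arm, were 294, 240 and 254 in untreated samples and 366, 403 and 489 with 20 Gy. 64 of 78 intervals lay within 2-fold (35.2% of all genes). The 20 Gy library numbered 3 was the highest of its group for 72 of 78 members (92.3%), against 41.6% of all genes. Without it, 38 of 78 fitted values lay above 0, the median was −0.01 and 66 of 78 intervals lay within 2-fold. Ndufb9, Ndufc1, Ndufv2 and Ndufb3 were then at 0.53, 0.55, 0.33 and 0.62. The genes of complex IV then lay on both sides of 0. Cox8a (−0.31), Cox7a1 (−0.22), Cox6a1 (−0.18), Cox6c (−0.08), Ndufa4 (−0.04), Cox7a2l (−0.03), Cox4i1 (−0.01) and Cox7b (−0.01) were below it. Cox6b2 (1.17), Cox7c (0.4), Cox6b1 (0.22), Cox7a2 (0.19), Cox5a (0.05) and Cox5b (0.04) were above it.

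With both treatments, Atp5k rose and was the only member called by limma without a block, 1.28% of the tested members against 1.21% of all genes called higher. No member was called lower (0.192% of all genes), and 15 of 78 members had an unadjusted p under 0.05 by limma, against 2276 of all 18274 genes. 61 of 78 fitted values lay above 0 (51.3% of all genes), with a median of 0.20 against 0.02, and 54 of 78 intervals lay within 2-fold (31.8%). The combined samples lay wholly above the untreated ones for 21 members (10.3%) and wholly below for 2, Cox7a2l among them (7.52%).

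**Figure D2:**
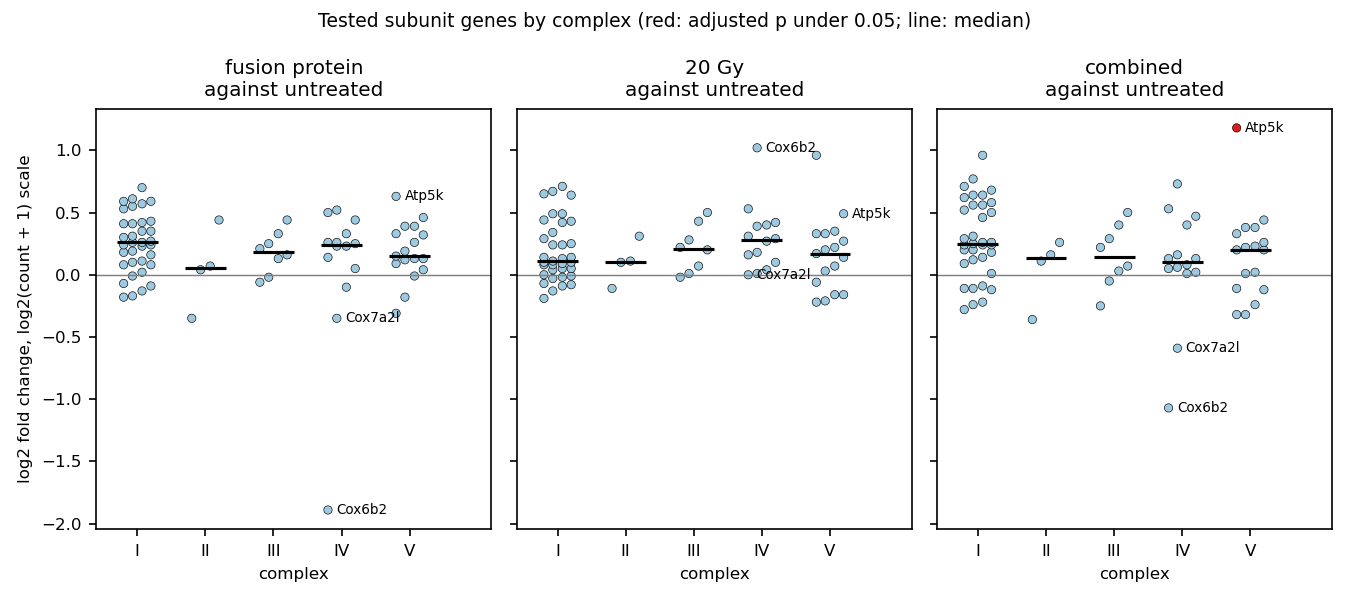
Log2 fold change against untreated of each tested member by complex for fusion protein, 20 Gy and combined treatment. Most points lie slightly above 0 in each comparison (63, 62 and 61 of 78), and Atp5k in combined samples was the only point that passed the adjusted p of 0.05 by limma without a block.

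Atp5k (ENSMUSG00000050856.16, chr5:108433244-108434448, minus strand, mm10) encodes subunit e of the ATP synthase, a small membrane protein that takes part in joining the enzyme into dimers. Its normalized counts were 276, 267 and 234 in untreated samples, 529, 283 and 425 with fusion protein, 299, 390 and 415 with 20 Gy, and 521, 607 and 644 with both. Samples given either treatment alone were all above the untreated ones, and the combined samples overlapped only with the highest fusion protein sample. The means were 259.1 ± 22.4, 412.2 ± 124, 368.0 ± 60.9 and 590.5 ± 63.4 (SD, n = 3 each).

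The rise in combined over untreated samples was 1.18 on the log2 scale (SE 0.24, 95% interval 0.66 to 1.71, limma adjusted p = 0.0352). Fusion protein alone gave 0.63 (adjusted p = 0.458) and 20 Gy alone 0.49 (adjusted p = 0.722). Combined samples were higher than 20 Gy samples by 0.69 (0.16 to 1.22, adjusted p = 0.341) and than fusion protein samples by 0.56 (adjusted p = 1), which did not pass. The interaction, which asks whether the 2 treatments together differ from the sum of each alone, was 0.06 (−0.68 to 0.81, adjusted p = 1).

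Leaving out any 1 of the 6 libraries compared kept the rise of Atp5k between 1.11 and 1.27 and ended its call each time, with adjusted p from 0.0622 to 0.19. Fitting untreated and combined samples alone, scaling to protein-coding genes and testing without a filter on low counts also ended the call (adjusted p = 0.0521, 0.0589 and 0.0878). edgeR on the recovered reads gave an adjusted p of 0.0445, DESeq2 0.000402, and the fit with the replicate number as a block 0.0093. The annotation names 1 pseudogene of Atp5k and no overlapping gene. Summed macrophage and monocyte markers, 9 of 9 read in every library, were 7386 to 17584 in untreated, 16764 to 31303 in fusion protein, 18387 to 24513 in 20 Gy and 19074 to 33234 in combined samples. Combined library 2 had fewer (19074) than 20 Gy library 1 (24513), though its Atp5k count was higher. Within the fusion protein group, library 1 was highest and library 2 lowest both for these markers (31303 and 16764) and for Atp5k. Summed neutrophil markers were 130 to 1758 in untreated and 1633 to 5301 in combined samples. The part of either list in the rise of Atp5k was not tested.

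**Figure D3:**
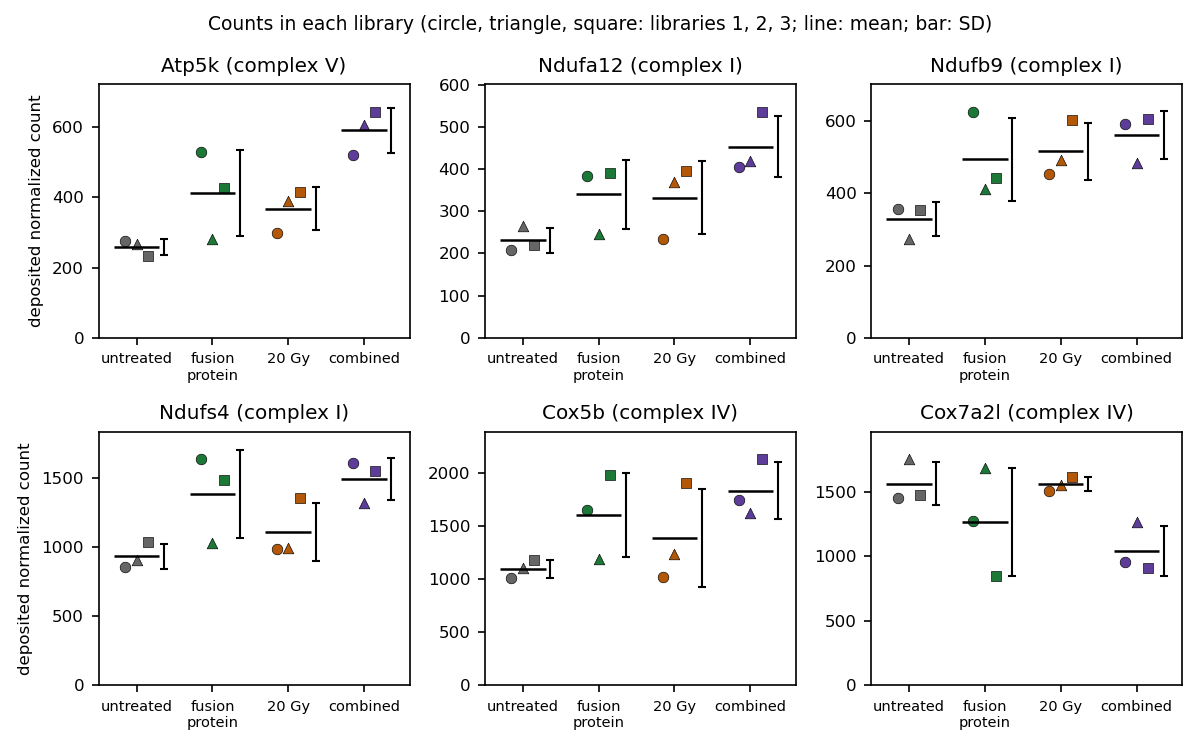
Normalized counts per library of the members the comparisons turn on, with the group mean and SD. For Atp5k the 3 combined samples (521 to 644) lie above all untreated samples (234 to 276).

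The members next after Atp5k belong to complex I and IV and did not pass the limma test without a block. Ndufa12, an accessory subunit of the peripheral arm of complex I, was at 209, 265 and 220 normalized counts in untreated samples and 405, 418 and 536 in combined samples. The groups did not overlap, and the log2 fold change was 0.96 (95% interval 0.39 to 1.54, adjusted p = 0.123). Ndufb9, a membrane-arm subunit, was at 357, 275 and 354 in untreated, 626, 412 and 443 in fusion protein, 452, 493 and 603 in 20 Gy and 592, 484 and 605 in combined samples. Every treated sample of Ndufb9 was above every untreated one, and the combined fold change was 0.77 (0.30 to 1.24, adjusted p = 0.132).

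Ndufs4, whose loss causes Leigh syndrome, was at 856, 902 and 1036 in untreated and 1609, 1319 and 1550 in combined samples, a difference of 0.68 (0.22 to 1.14, adjusted p = 0.176). Cox5b of complex IV was at 1009, 1108 and 1177 in untreated and 1748, 1622 and 2135 in combined samples, a difference of 0.73 (0.18 to 1.28, adjusted p = 0.236). Neither gene's untreated and combined samples overlapped.

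Same-numbered libraries deviated together in the comparisons with untreated, so a fit with the replicate number as a block was read beside the main one. Under that block 6 of 78 members were called higher in combined over untreated samples, against 958 of all 18274 genes. They were Atp5k, Ndufb9 (adjusted p = 0.0224), Cox5b (0.0236), Ndufs4 (0.0242), Ndufa12 (0.0281) and Ndufb7 (log2 fold change 0.50, adjusted p = 0.0498). For fusion protein the block called 1 of 78 members higher, against 416 of all 18274 genes. This was Ndufb7 (0.61, adjusted p = 0.0374), at 530, 688 and 805 normalized counts in untreated and 931, 893 and 1247 in fusion protein samples. DESeq2 called 3 of 78 members higher in combined over untreated samples, against 551 of all 18274 genes: Atp5k, Ndufa12 (adjusted p = 0.0205) and Ndufb9 (0.0289). No fit called a member lower.

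Of the abundant members, Cox7a2l had the smallest p-value among those with a negative fold change in combined samples. Cox7a2l, which encodes a factor that joins complexes III and IV into supercomplexes, was at 1454, 1756 and 1478 in untreated, 1270, 1688 and 849 in fusion protein, 1505, 1556 and 1616 in 20 Gy and 953, 1262 and 910 in combined samples. The combined samples lay below every untreated and every 20 Gy sample. The fold change was −0.59 against untreated (−1.11 to −0.08, adjusted p = 0.318) and −0.60 against 20 Gy (−1.11 to −0.08, adjusted p = 0.441), and neither passed.

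None of the core and catalytic subunits in the set passed limma's test in combined over untreated samples, and the smallest p-value among them was that of Ndufv2. This iron-sulphur subunit beside the flavin site of complex I was at 937, 905 and 818 in untreated and 1248, 1225 and 1180 in combined samples, with no overlap (0.46, 0.12 to 0.80, adjusted p = 0.229). Ndufv1, which binds the flavin that accepts electrons from NADH, was at 525, 790 and 789 in untreated, 526, 765 and 575 in fusion protein, 541, 578 and 889 in 20 Gy and 603, 512 and 589 in combined samples. Ndufs1 was at 859 to 1018 in untreated and 830 to 1027 in combined samples. Untreated and combined samples overlapped for Ndufv1 and Ndufs1.

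Sdha was at 2599, 3366 and 2768 in untreated and 2221, 2801 and 1842 in combined samples, and Sdhb at 727, 1004 and 979 against 1066, 917 and 1014. In complex III the Rieske protein Uqcrfs1 was at 777, 895 and 1147 against 724, 793 and 827 (−0.25, −0.73 to 0.23), and Uqcrc1 differed by 0.07 (−0.38 to 0.53). In complex IV Cox4i1 differed by 0.13 (−0.29 to 0.55), and mean counts of Cox5a were 499.2, 603.9, 610.5 and 552.9 in untreated, fusion protein, 20 Gy and combined samples.

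The largest head subunits of the ATP synthase had fitted values below 0 in combined samples. Atp5a1 was at 5287, 7720 and 9566 in untreated and 5810, 6577 and 6202 in combined samples (−0.24, −0.84 to 0.36), and Atp5b, the catalytic beta subunit, differed by −0.12 (−0.80 to 0.56). Over the 5 genes of the F1 head the median log2 fold change was 0.09 with fusion protein, −0.06 with 20 Gy and −0.12 with both, against 0.26, 0.17 and 0.23 over the 11 genes of the membrane part and stalk. In complex I the 28 accessory genes had medians of 0.31, 0.14 and 0.28 and the 7 core genes 0.11, 0.05 and 0.20. These medians are descriptions of groups of genes, and the differences between them were not tested.

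Combined treatment was also compared with each treatment alone. Against 20 Gy, no member was called, with 0.843% of all genes higher and 0.186% lower. By limma 3 of 78 members had an unadjusted p under 0.05, against 1643 of all 18274 genes. edgeR and DESeq2 called 0 members there too. 40 of 78 fitted values lay above 0 (48.4% of all genes), with a median of 0.01, and 66 of 78 intervals lay within 2-fold (34.4%). 3 members lay wholly above (8.36%) and 2 wholly below, Cox6b2 and Cox7a2l (9.55%). Cox6b2 met the minimum mainly through its 20 Gy samples, so its place here is not independent of the filter. Without the 20 Gy library numbered 3, 65 of 78 values lay above 0 with a median of 0.20, whereas without the 20 Gy library numbered 1 there were 23, with a median of −0.12. Scaling to protein-coding reads put 26 of 78 above 0, with a median of −0.07.

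Against fusion protein alone, 0% of all genes were called higher and 0% lower, with 0 calls by edgeR or DESeq2. By limma 1 of 78 members, Atp5k, had an unadjusted p under 0.05, against 534 of all 18274 genes. 34 of 78 fitted values lay above 0 (53.7% of all genes), with a median of −0.03, and 71 of 78 intervals lay within 2-fold (37%). 3 members lay wholly above (4.48%) and 3 wholly below (3.81%). After Atp5k the smallest p-values were those of Ndufa7 (0.38), Ndufc1 (0.39) and Ndufa12 (0.43), each with an adjusted p of 1.

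For the interaction 0% of all genes were called in the positive and 0% in the negative direction by limma. An unadjusted p under 0.05 was reached by 0 members by limma, 1 by edgeR and 1 by DESeq2, against 188, 221 and 309 of all 18274 genes. 8 of 78 fitted values lay above 0, against 50% of all genes, and the median was −0.16 against 0, so that the fitted value with both treatments was mostly below the sum of the separate ones. The intervals were wide: 47 of 78 lay within 2-fold (24.3%). Uqcr11 (−0.72), Ndufb3 (−0.75), Cox7c (−0.47) and Atp5e (−0.44) had the smallest p-values, with an adjusted p of 1. Leaving out 1 library at a time gave 4 to 40 values above 0. The count was 40, with a median of 0.01, without the 20 Gy library numbered 3 and 4 without number 1. It was 24 without the untreated library numbered 1, 18 and 19 without fusion protein libraries 1 and 3, and 14 and 18 without combined libraries 1 and 2.

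**Figure D4:**
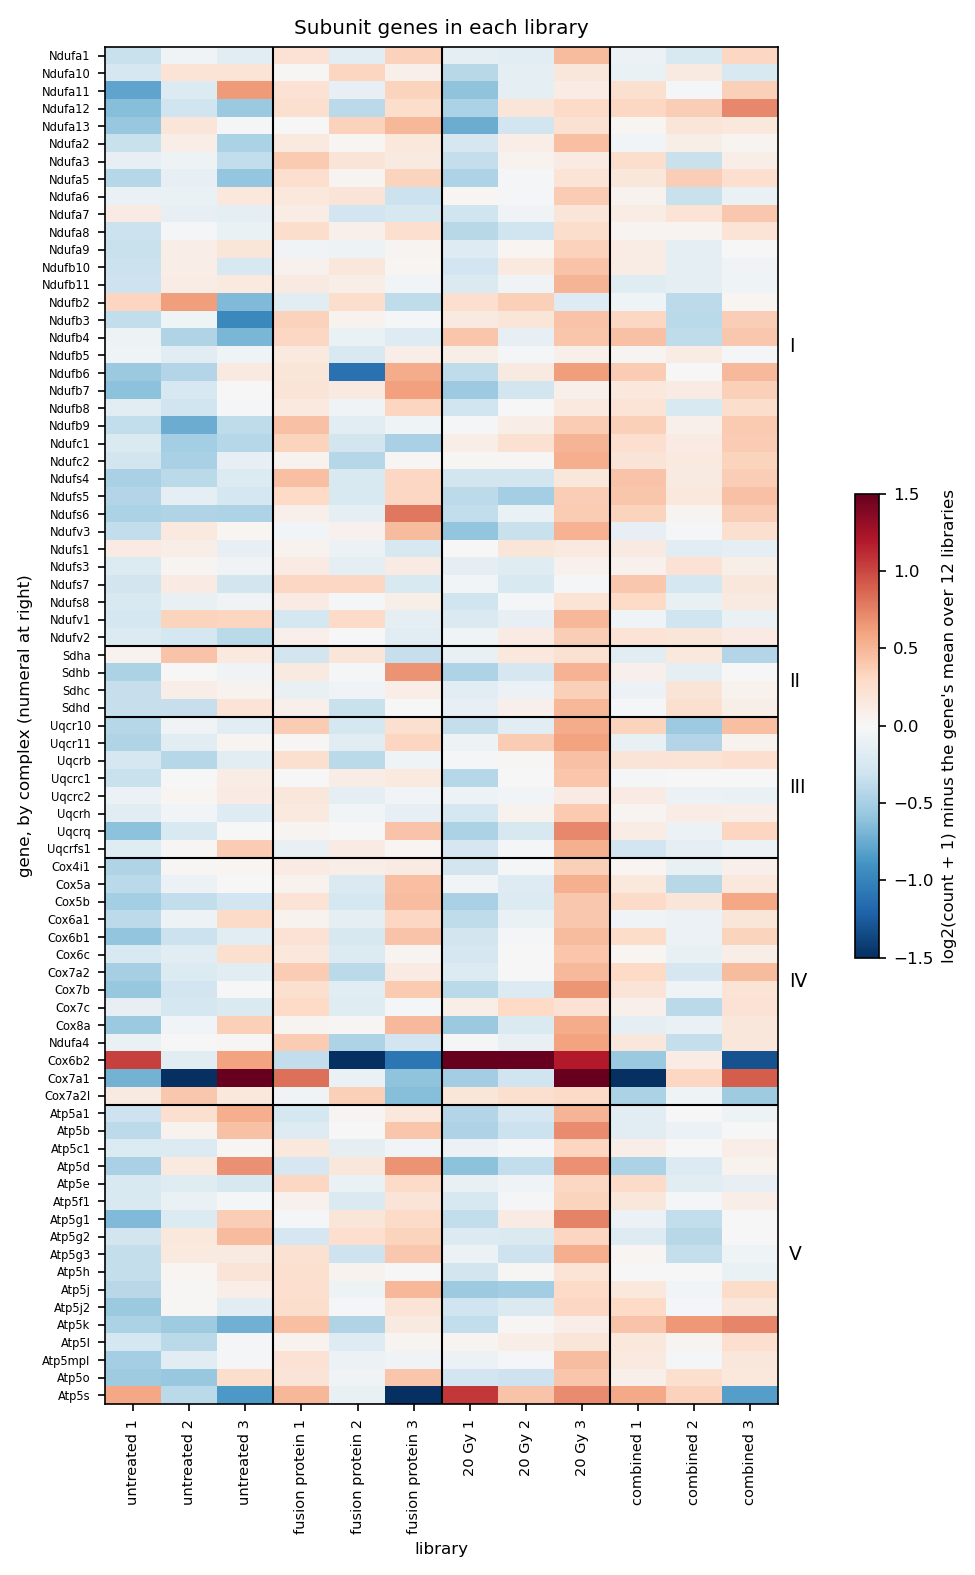
Log2 normalized count of the tested members (1 left out) in each library, as the difference from the gene's mean over the 12 libraries, ordered by complex and drawn on a clipped colour scale. The 20 Gy library numbered 3 is high for most members, and the untreated library numbered 1 is low for most.

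The library numbered 3 was the highest of its group in all 4 groups for 18 of 78 members (23.1%), against 13.2% of all genes. Summed melanoma markers were also highest in the library numbered 3 of every group. Summed B and plasma cell markers were lowest there, at 109.7 in untreated, 249.4 in fusion protein, 201.6 in 20 Gy and 2286 in combined samples. The part of these markers in the members' values was not tested. What a replicate number stands for is not stated in the labels.

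As a whole the 84 rows took 0.460%, 0.534% and 0.495% of nuclear protein-coding reads in untreated samples. The shares were 0.560%, 0.503% and 0.521% with fusion protein, 0.499%, 0.550% and 0.584% with 20 Gy, and 0.545%, 0.505% and 0.513% with both. The group means were 0.496% ± 0.037, 0.528% ± 0.029, 0.544% ± 0.043 and 0.521% ± 0.021 (SD, n = 3 each), and each treated group overlapped the untreated one. The subunits encoded in mitochondrial DNA varied more. 13 of them took 0.728%, 0.816% and 0.656% of all reads in untreated, 0.462%, 0.554% and 0.451% in fusion protein, 0.693%, 0.826% and 1.312% in 20 Gy and 0.457%, 0.993% and 0.593% in combined samples.

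**Figure D5:**
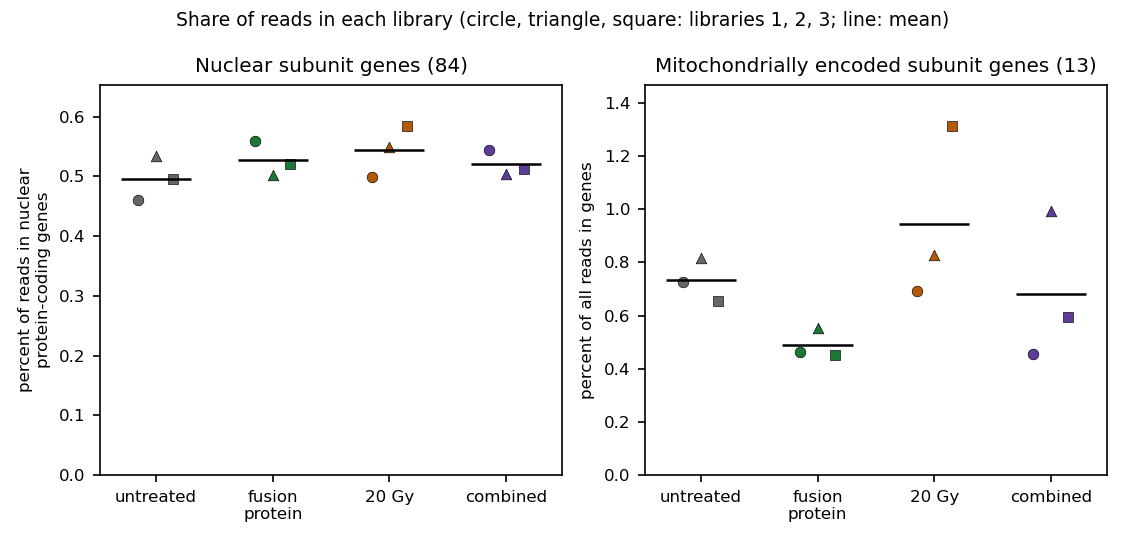
Share of reads taken by the nuclear members and by the mitochondrially encoded subunits in each library, by group. The nuclear share, of nuclear protein-coding reads, stays between 0.460% and 0.584%, whereas the mitochondrial share, of all reads, spans 0.451% to 1.312%. Of all reads the nuclear members took 0.357% to 0.435%.

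With fusion protein 1 of the 11 tested mitochondrial genes lay above 0 (median −0.45), beside 63 of 78 nuclear members, and with 20 Gy 11 of 11 did (median 0.41), beside 62 of 78. Without the 20 Gy library numbered 3, 5 of 11 mitochondrial genes (median −0.06) and 38 of 78 members lay above 0. With both treatments 5 of 11 did (median −0.05), beside 61 of 78, and the 2 sets were not tested against each other. None of the 11 passed limma's test in any of the 6 comparisons. The smallest p-value was that of mt-Nd6, the complex I subunit read from the light strand, in combined over untreated samples (log2 fold change 1.01, adjusted p = 0.144), and it passed with the replicate block (adjusted p = 0.0402) and by DESeq2 (0.0219).

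Genes that serve the chain without being its subunits held the other calls. Of 48 assembly factors, 39 lay above 0 with fusion protein, 36 with 20 Gy and 35 with both (medians 0.21, 0.12 and 0.27), and 2 genes passed the test. In fusion protein over untreated, combined over untreated and combined over 20 Gy samples 1 of 48 was called higher. Of all genes, 0.586%, 1.21% and 0.843% were called higher in the same order. Sco1, a copper chaperone that helps build the copper centre of complex IV, was at 215, 205 and 305 normalized counts in untreated, 677, 464 and 1113 in fusion protein, 193, 211 and 349 in 20 Gy and 916, 898 and 1296 in combined samples. Both groups given fusion protein lay above both groups without it. Sco1 rose by 2.10 on the log2 scale in combined over untreated samples (SE 0.34, adjusted p = 0.0102) and by 2.07 over 20 Gy (SE 0.34, adjusted p = 0.0123), while fusion protein alone gave 1.56 (adjusted p = 0.0716). With the replicate block that difference passed too (adjusted p = 0.0004), as it did by DESeq2 (0.00116), whereas edgeR gave 0.0653.

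Leaving out 1 library at a time kept 4 of 6 calls of Sco1 against untreated (adjusted p = 0.0184 to 0.0722) and 2 of 6 against 20 Gy (0.00737 to 0.085). In the limma fit with the olfactory receptor level as covariate, the call against untreated stayed (adjusted p = 0.0216) and that against 20 Gy was lost (0.0511). Without 20 Gy libraries 1 and 2 and combined library 1, the log2 fold changes were 2.18 and 1.62, with 1 library of 20 Gy alone left. Summed markers of T and natural killer cells, 7 of 7 read in every library, were also higher in both groups given fusion protein. They were 15083 to 22464 in untreated, 29352 to 48983 in fusion protein, 8838 to 12885 in 20 Gy and 26325 to 32836 in combined samples. With 20 Gy alone these markers lay below the untreated samples, whereas Sco1 overlapped them. The part of these markers in the rise of Sco1 was not tested. The other call was Uqcc2, which serves the assembly of cytochrome b into complex III, at 233, 247 and 175 in untreated and 478, 375 and 483 in fusion protein samples (1.03, SE 0.21, adjusted p = 0.0497). 1 of 6 fits that left out a library kept it (0.0463 to 0.209), and edgeR gave 0.0602. In combined over untreated samples the block added Uqcc2 (0.90, adjusted p = 0.017), the copper chaperone Cox17 (1.21, adjusted p = 0.00156) and Pet100, a complex IV assembly factor (0.65, adjusted p = 0.0325). DESeq2 called these 3 as well. With Sco1, each of these 2 fits called 4 of 48 assembly factors higher, against 958 of all 18274 genes with the block and 551 by DESeq2.

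Cytochrome c (Cycs), the carrier between complexes III and IV, was at 854, 867 and 1466 in untreated and 2429, 1973 and 2982 in combined samples (1.24, adjusted p = 0.122), with no overlap, and passed with the replicate block (adjusted p = 0.00287). Atpif1, the inhibitor that blocks the ATP synthase when it runs backwards, was at 1786, 1246 and 1536 in untreated and 2494, 2559 and 3140 in 20 Gy samples (0.85, adjusted p = 0.443). Combined samples were at 1665, 1236 and 1662 (−0.85 against 20 Gy, adjusted p = 0.072). Summed erythroid markers moved with Atpif1, at 2011 to 2897 in 20 Gy samples and at most 784.8 in any other library, and their part was not tested.

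No gene of the other lists passed limma's test without a block in the comparisons with untreated. The 20 genes of electron carriers and ubiquinone synthesis had medians of 0.12, 0.08 and 0.12 with fusion protein, 20 Gy and both, and the 17 genes of the tricarboxylic acid cycle −0.09, 0.07 and −0.06. The 20 regulators of mitochondrial gene expression had −0.01, −0.15 and −0.11. The 77 tested mitochondrial ribosomal proteins had 0.27, 0.04 and 0.27, beside the members' 0.23, 0.15 and 0.20, and the 81 tested cytosolic ribosomal proteins had 0.04, −0.11 and −0.22. With the replicate block, 958 of all 18274 genes were called higher and 455 lower in combined over untreated samples. Further calls there were Slirp (1.16) and Ssbp1 (0.69) among the 20 regulators. Of the 77 mitochondrial ribosomal genes, 6 were called higher, led by Mrpl30 (0.79, adjusted p = 0.0194). Of the 81 cytosolic ribosomal genes, Rps27l (1.04) was called higher and Rplp0 (−0.69) lower. In fusion protein over untreated samples the block called Mrpl30 higher (0.92, adjusted p = 0.0137), against 416 of all 18274 genes.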

How the data were processed

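The authors deposited 1 table of DESeq2-normalized counts, a signal in units of reads divided by a size factor per library. Reads were trimmed with Trimmomatic, aligned with STAR to mm10 and counted with featureCounts, per the submitters' processing notes; their versions and settings, strand use included, are not stated there or in the labels. Whole reads were recovered from the deposited values (100% whole within 0.001), and depth was taken from them. Of 55401 identifiers, 55141 were matched to GENCODE vM21. Members and lists were chosen with earlier results of these data known.

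The main test was limma 3.58.1 (R 4.3.3) with trend on log2(normalized count + 1), over 18274 genes with at least 10 in at least 3 libraries. All 12 libraries entered 1 fit with 4 groups and 8 residual degrees of freedom. Tests were two-sided, for 6 comparisons, with Benjamini-Hochberg adjustment over all tested genes and a threshold of 0.05. Log2 values with this pseudocount understate the change of low genes. edgeR 4.0.16 and DESeq2 1.42.0 on the recovered reads were alternatives (168 genes higher and 32 lower in combined over untreated samples by edgeR), as were other pseudocounts, filters and scalings, a covariate, and leaving out libraries. The scripts were tested on simulated data. Named genes were those that passed, those of smallest p where none did, core subunits, isoform pairs, and the extremes of level and of spread. The promoters printed were chosen after the motif search. The values of 1 member are not reported here on its own, though counts and medians over members include it.

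Libraries share replicate numbers, whose meaning the labels do not give. After removal of group means, same-numbered libraries correlated at 0.473 to 0.621 between fusion protein and untreated, 0.156 to 0.496 between 20 Gy and untreated, 0.334 to 0.389 between combined and untreated and 0.41 to 0.484 between combined and fusion protein. The main fit has no replicate term and ignores this pairing, which entered only the fit with the replicate block. Between combined and 20 Gy the range was 0.01 to 0.505 and no pairing was read. Per-length levels used the principal transcript (of several, that of median length).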

Additional observations from a re-analysis of the deposited data

How the results depend on the processing

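With the replicate block, 6 members were higher in combined over untreated samples and 1 in fusion protein over untreated, in place of 1 and 0; the block changed no other count of members called. In combined over untreated samples DESeq2 called 3 members higher. There 0 were called without a filter on low counts, with scaling to protein-coding genes, with the olfactory receptor level as covariate, with untreated and combined samples fitted alone, with the libraries numbered 3 left out, and with 20 Gy libraries 1 and 2 and combined library 1 left out (the last 2 chosen after seeing the data). Leaving out 1 library at a time gave 0 to 0. Over all genes, that comparison had 221 called higher and 35 lower by limma, 958 and 455 with the block, and 551 and 204 by DESeq2. The covariate moved the members' median log2 fold change in 20 Gy over untreated to 0.351. With 20 Gy libraries 1 and 2 and combined library 1 left out, the median was 0.542 in 20 Gy over untreated, −0.352 in combined over 20 Gy and −0.518 for the interaction; this leaves 1 library of 20 Gy alone, number 3. The 4 summed levels as shares of all reads were 0.378%, 0.399%, 0.393% and 0.386%. No called value changed sign. Where 1 library was left out of a group, the remaining samples were assumed to vary like the other groups. Depth limits the tissue forms: members under the minimum were tested only without the filter, and none passed. The cause of each change was not tested.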
